A study of Mus musculus with 12 samples.

Results

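The comparison described here asked in which genes the response to dipyridyl differed between fibroblasts with and without the coactivators CBP and p300. Primary mouse embryonic fibroblasts (MEFs, taken at e14.5, C57Bl/6 x 129Sv F1, passage 4) were either wild type or carried conditional alleles of both genes in homozygous form. Cells of both genotypes received adenovirus expressing Cre recombinase at a multiplicity of infection of 100, so the virus was shared by all groups, and the conditional cells became CBP/p300 null (called dKO). Each line was then given 100 µM 2,2'-dipyridyl (DP) or its vehicle, ethanol, for 3 h in normoxia after 48 h in 3% oxygen and 24 h in normoxia. There were 3 wild-type lines (WT3, WT4 and WT5) and 3 dKO lines (dKO1, dKO5 and dKO6), with 1 microarray per line and treatment, so that all 12 arrays of the series were used in 4 groups of 3. The response of a line is its log2 level under DP minus its log2 level in ethanol, and the difference of responses is the dKO mean minus the wild-type mean over all 17097 genes with a probe set of 1 gene symbol.

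CBP and p300 are closely related lysine acetyltransferases that bind many DNA-bound activators and bring acetylation and other coactivators to their target genes. DP is an iron chelator; the prolyl and asparaginyl hydroxylases that keep hypoxia-inducible factor (HIF) unstable and inactive need iron, so the compound is used to switch on HIF target genes in oxygen. The carboxy-terminal activation domain of HIF-1α binds CBP and p300 directly, and CREB, which drives cAMP-inducible genes, binds them through another domain. A smaller response in dKO cells can reflect a lower level under DP, a higher level in ethanol, or both, and the levels behind each difference are therefore given as well.

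Sequence upstream of the start site is shown for 3 genes whose response was smaller in dKO lines and 3 whose response was greater. They were the called genes of largest difference that RefSeq lists with an upstream window, the greater set being restricted to genes that DP raised in dKO lines. Each window covers the 250 bases before the first start site listed (GRCm38.p6), 5′ to 3′ on the gene's strand. Capitals mark ACGTG, a core that HIF binds, on either strand (CACGT is its reverse complement). Other forms of the HIF core, such as GCGTG, were neither searched for nor marked.
Selenbp2, chr3:94693323-94693572, + strand: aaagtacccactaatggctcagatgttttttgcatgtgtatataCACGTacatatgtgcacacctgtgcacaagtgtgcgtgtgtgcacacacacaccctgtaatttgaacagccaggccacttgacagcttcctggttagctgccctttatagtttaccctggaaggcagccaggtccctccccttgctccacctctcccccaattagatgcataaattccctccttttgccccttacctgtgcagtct
Selenbp1, chr3:94932833-94933082, + strand: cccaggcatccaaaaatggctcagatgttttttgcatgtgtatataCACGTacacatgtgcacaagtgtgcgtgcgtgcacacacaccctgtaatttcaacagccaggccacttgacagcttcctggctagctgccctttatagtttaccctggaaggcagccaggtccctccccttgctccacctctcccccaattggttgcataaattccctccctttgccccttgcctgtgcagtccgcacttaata
Car12, chr9:66713436-66713685, + strand: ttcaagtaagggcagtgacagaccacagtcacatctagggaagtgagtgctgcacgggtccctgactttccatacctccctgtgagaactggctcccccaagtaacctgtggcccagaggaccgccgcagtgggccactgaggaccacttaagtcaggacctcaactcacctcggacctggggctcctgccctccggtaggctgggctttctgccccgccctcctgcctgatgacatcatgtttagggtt
Ak4, chr4:101419039-101419288, + strand: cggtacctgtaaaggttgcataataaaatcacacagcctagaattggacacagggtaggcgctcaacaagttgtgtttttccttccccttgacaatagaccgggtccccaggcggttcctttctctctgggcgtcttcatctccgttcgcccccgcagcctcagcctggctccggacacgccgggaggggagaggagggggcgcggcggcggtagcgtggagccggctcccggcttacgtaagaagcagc
Pfkfb3, chr2:11553930-11554179, - strand: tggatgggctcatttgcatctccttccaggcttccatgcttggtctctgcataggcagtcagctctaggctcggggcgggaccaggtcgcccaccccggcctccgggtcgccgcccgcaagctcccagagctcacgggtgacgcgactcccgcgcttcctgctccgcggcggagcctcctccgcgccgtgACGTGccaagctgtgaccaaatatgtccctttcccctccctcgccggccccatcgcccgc
Bnip3, chr7:138909507-138909756, - strand: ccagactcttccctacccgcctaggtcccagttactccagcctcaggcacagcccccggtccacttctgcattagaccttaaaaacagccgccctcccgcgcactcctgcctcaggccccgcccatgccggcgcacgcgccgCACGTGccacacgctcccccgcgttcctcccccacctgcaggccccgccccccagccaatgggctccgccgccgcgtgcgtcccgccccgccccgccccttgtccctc

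The paired Selenbp genes lie on chromosome 3 with near-identical windows: 225 of 238 aligned bases matched (94.5%), and each held ACGTG once, 206 bases before the start in Selenbp2 and 204 in Selenbp1. Pfkfb3 held it 60 bases before the start, and Bnip3 held the palindrome CACGTG, which counts once on each strand. No ACGTG lay on either strand in these windows of Car12 or Ak4, the latter being the first of 4 windows listed for the gene. Of the 13514 tested genes with a window, 19.8% held ACGTG on either strand. Among genes called lower in dKO lines it was present in 20 of 63 with a window (31.7%), and among those called higher in 3 of 6. The CREB site TGACGTCA was found in 1 of the 63 and 0 of the 6, against 2.30% of all windows. The AP-1 motif TGANTCA was found in 4 of the 63 and 1 of the 6, against 5.62%. These counts describe letters in 1 window per gene, and no test was made of them.

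Some facts about the lines bear on all of the differences. Crebbp, which encodes CBP, had levels from 8.07 to 8.54 log2 on the wild-type arrays and from 7.02 to 7.69 on the dKO arrays, without overlap; the sources used here do not say whether its probe set lies in the deleted part of the gene, and Ep300 was not analysed here. Xist averaged 10.50 in wild-type and 4.58 in dKO ethanol arrays, while the Y-linked Eif2s3y averaged 2.78 and 7.80, so the sex of the embryos and the genotype cannot be told apart. The 4 measured sex-linked genes had a median response of 1.17 in dKO1, 0.00 in dKO5 and 0.35 in dKO6. In WT3, WT4 and WT5 it was 0.13, -0.03 and -0.06, and the source of the dKO1 value was not tested. All 12 fibroblast markers, among them Col1a1, Thy1 and Pdgfrb, averaged lower in dKO lines in both treatments; their summed log2 level was 117.3 to 120.0 in wild-type and 91.3 to 98.1 in dKO arrays, with group means of 12.45 to 13.18 for Vim and 10.30 to 12.03 for Col1a1, and the part of this in the differences was not tested. The 12 markers also had a negative difference of responses in every case, against 54.3% of all genes, with a median of -0.15 and no call. In none of the 12 did the dKO responses lie wholly below or wholly above the wild-type responses. The ethanol arrays of WT5 and dKO1 deviated from their group means in the same genes (r = 0.84 across 8917 genes, which share these 2 arrays). The responses of WT5 and dKO1 correlated at 0.69. WT5 correlated with WT3 and WT4 at 0.55 and 0.52, and dKO1 with dKO5 and dKO6 at 0.32 and 0.45. Without WT5 and dKO1 95 genes were called, and 73 of the 89 genes called with all lines were among them. The result of that fit is given below for some genes only. The beta-actin 3′ to 5′ probe ratio, which rises as RNA degrades, was 0.23 to 0.25 log2 in wild-type and 0.40 to 0.45 in dKO ethanol arrays, and 0.28 to 0.38 and 0.48 to 0.60 under DP, so it separated the genotypes in both treatments. Its change with DP overlapped, at 0.05 to 0.15 in each genotype, as did that of the Gapdh ratio, at -0.11 to 0.20 and -0.11 to 0.00; their part in the differences was not tested.

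Many more responses were smaller in dKO lines than were greater. At an adjusted p under 0.05 (limma on the 6 line responses, Benjamini-Hochberg over all genes), 81 genes had a lower response in dKO lines, 0.474% of those tested, and 8 had a higher one, 0.0468%. At an unadjusted p under 0.05 there were 1134 genes. In each of the 89 called genes the 3 dKO responses lay wholly below or wholly above the 3 wild-type responses; over all genes, 7.97% were arranged below and 3.44% above. The median difference over all genes was -0.02. In bulk RNA such as this, fewer responding cells and a smaller response per cell cannot be told apart. The number of calls depended on single lines: it was 46 without WT3, 45 without WT4, 58 without WT5, 44 without dKO5, 38 without dKO6 and 96 without dKO1. With weights estimated for each line's response it was 271, of which 229 were lower and 42 higher.

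Most of the lower responses were rises that became smaller. In the same fit DP raised 531 genes in wild-type lines (3.11%) and lowered 276 (1.61%), and it raised 191 (1.12%) and lowered 76 (0.445%) in dKO lines. Of the 81 genes with a lower response, 78 rose in wild-type lines; 27 of these also rose in dKO lines, and 51 did not pass the test there. The dKO mean response was a median of 17.7% of the wild-type rise in the 78 genes, under 25% in 48 of them, 25% to 50% in 21 and at least 50% in 9. The 78 were chosen for a smaller dKO response, so these percentages describe their range and support nothing. In 53 of the 81 genes the response was positive in every one of the 6 lines. The remaining 3 genes were Txnip, which fell in both genotypes, and Prss16 and Cybrd1, which fell in dKO lines.

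**Figure D1:**
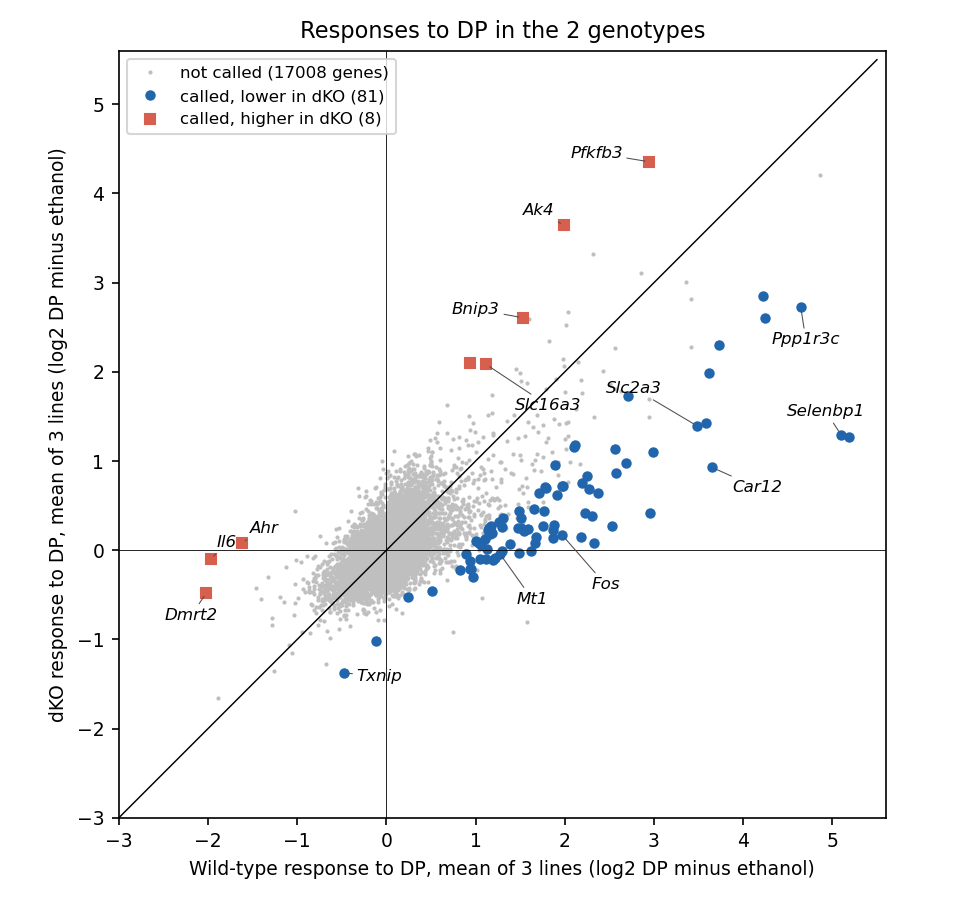
Mean response to DP in wild-type lines (horizontal axis) against dKO lines (vertical axis), log2 DP minus ethanol, 1 point per gene and 3 lines per mean; the diagonal marks equal responses. Of the 89 called genes, 81 lie below the diagonal (blue circles) and 8 above it (red squares), and Selenbp1 lies at 5.10 in wild-type and 1.30 in dKO lines.

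The strongest loss was in Selenbp2 and Selenbp1, which encode closely related selenium-binding proteins; Selenbp1 is a methanethiol oxidase. Selenbp1 responded by 5.04, 5.16 and 5.09 log2 in WT3, WT4 and WT5 and by 1.25, 1.51 and 1.13 in dKO1, dKO5 and dKO6. That is a mean rise of 34.2-fold against 2.46-fold, a difference of -3.80 ± 0.15 (SE, 3 against 3 lines; adjusted p 1.2e-05). Selenbp2 responded by 5.03, 5.29 and 5.23 in the wild-type lines and by 1.00, 1.82 and 1.00 in the dKO lines, a difference of -3.91 ± 0.23 (adjusted p 2.1e-04). Every dKO response of both genes was positive, and every one lay far below every wild-type response. Selenbp2 is represented by a probe set whose name marks it as shared within a gene family, so signal from Selenbp1 transcripts cannot be told apart in it. In ethanol both genes were higher in dKO lines: Selenbp1 stood at 3.64 to 4.20 in wild-type and 4.63 to 4.81 in dKO arrays, and under DP at 8.80 to 9.29 and 5.81 to 6.14.

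Membrane proteins of large difference included Car12, Slc2a3 and Cacna1h. Car12, a membrane carbonic anhydrase, responded by 3.57, 3.73 and 3.64 in wild-type and by 0.73, 1.40 and 0.66 in dKO lines. Its mean rise was 12.5-fold against 1.91-fold, and the difference was -2.71 ± 0.20 (adjusted p 7.4e-04). Slc2a3, the glucose transporter GLUT3, responded by 3.56, 3.52 and 3.38 in wild-type lines and by 1.40, 1.57 and 1.21 in dKO lines, with a difference of -2.09 ± 0.15 (adjusted p 7.0e-04). The ethanol levels of Slc2a3 overlapped between the genotypes, at 6.86 to 7.51 and 7.18 to 7.80, whereas under DP they were 10.41 to 10.89 and 8.75 to 9.06. Slc2a1, the transporter GLUT1, was not called: its mean response was 1.99 ± 0.26 (SD, n = 3 lines) in wild-type and 2.07 ± 0.33 in dKO lines, a difference of 0.07 ± 0.21 (SE). Cacna1h, a T-type calcium channel subunit, rose 5.79-fold in wild-type lines and did not pass the test in dKO lines, where its ethanol mean lay near the blank controls and a rise would be understated. Its difference was -2.27 ± 0.18 (adjusted p 7.4e-04). With the mean of all probe sets of a gene, the dim ones included, the differences of Car12 and Slc2a3 shrank to -1.37 and -1.19 and stayed called (adjusted p 4.4e-03 for both).

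Further genes of large difference encode enzymes and their regulators. Ppp1r3c, which targets protein phosphatase 1 to glycogen, responded by 4.62, 4.95 and 4.37 in wild-type and 2.87, 2.87 and 2.45 in dKO lines, a difference of -1.92 ± 0.19 (adjusted p 2.9e-03). Gbe1, the glycogen branching enzyme, rose 4.75-fold in wild-type and 1.78-fold in dKO lines (difference -1.42 ± 0.20, adjusted p 0.016). The Gbe1 call was lost without WT3, WT4, dKO5 or dKO6, with differences between -1.52 and -1.32 and adjusted p from 0.052 to 0.10. Dgat2, which makes triglyceride in its last step, differed by -1.92 ± 0.20, and Me2, a mitochondrial malic enzyme, by -1.89 ± 0.22. Cdk5r1, an activator of the kinase CDK5, responded by 2.14, 2.08 and 2.32 in wild-type lines and by 0.20, 0.41 and -0.16 in dKO lines, a difference of -2.03 ± 0.17 (-0.88 with the mean of all its probe sets, adjusted p 0.020). Rab33a, a small GTPase encoded on the X chromosome, rose 12.0-fold in wild-type and 2.69-fold in dKO lines. In ethanol Gbe1, Me2 and Cdk5r1 were higher in dKO arrays, and Ppp1r3c, Dgat2 and Rab33a lower, each without overlap. The ethanol means in wild-type and dKO arrays were 4.85 and 6.09 for Gbe1, 5.33 and 6.42 for Me2, and 3.91 and 4.96 for Cdk5r1. Their DP means were 7.10 and 6.92, 8.32 and 7.52, and 6.09 and 5.11, and the Gbe1 arrays overlapped under DP. For 2610528A11Rik (difference -2.54 ± 0.15) and the metallopeptidase gene Amz1 (-2.25 ± 0.18) the wild-type ethanol mean lay near the blank controls, so their wild-type rises are understated. The dKO ethanol mean of Amz1 lay near the blank controls as well, so a dKO rise of Amz1 would also be understated. In all, 16 of the 89 genes had at least 1 group mean near the blank controls.

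**Figure D2:**
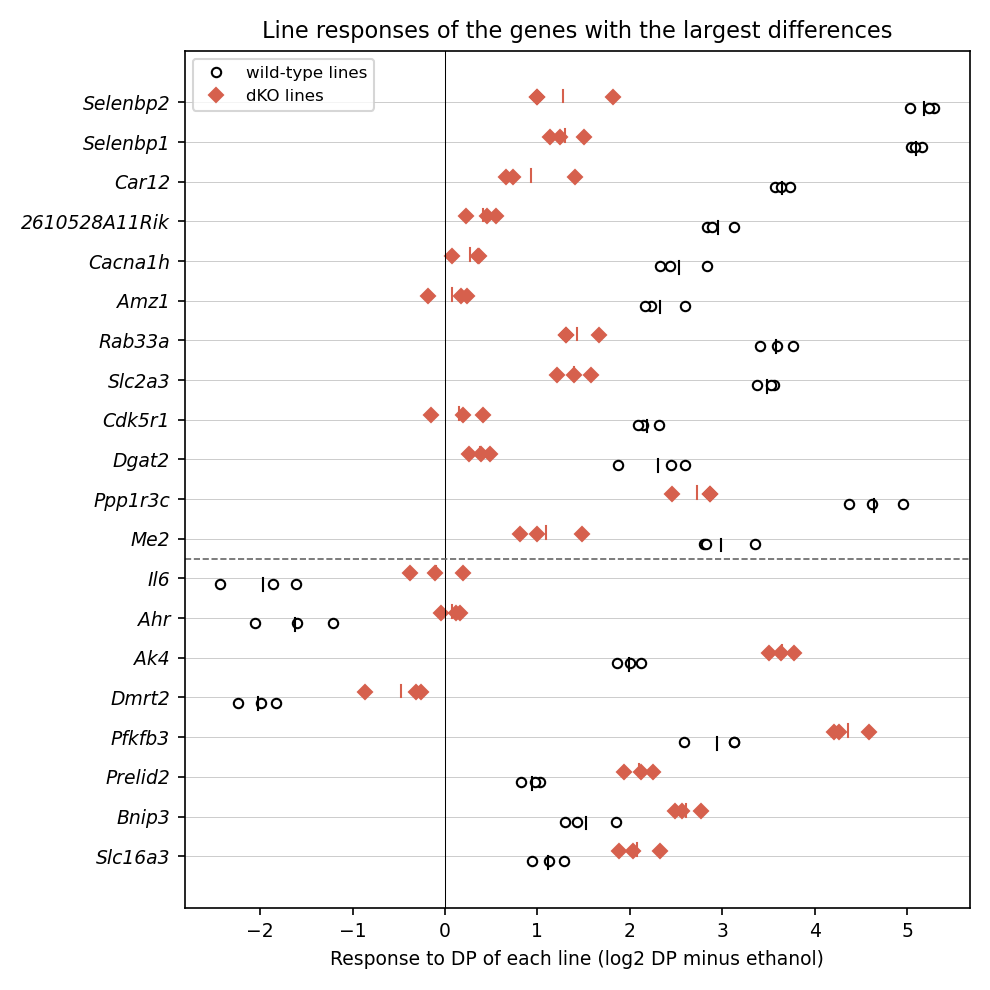
Responses of the single lines (log2 DP minus ethanol) for the 12 genes of largest negative difference, above the dashed line, and all 8 genes of positive difference, below it; open circles are wild-type lines, red diamonds dKO lines and short bars the means of 3 lines. The groups do not overlap in any of these genes, and Il6, Ahr and Dmrt2 appear below the line because their wild-type responses are negative.

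Further genes with a smaller response were also already high in ethanol in dKO cells. Fos, the AP-1 subunit and a classic CREB and immediate early gene, responded by 1.84, 2.03 and 2.04 in wild-type lines and by 0.05, 0.23 and 0.24 in dKO lines (difference -1.80 ± 0.14, adjusted p 7.4e-04). Its levels in ethanol were 6.01 to 6.28 in wild-type and 8.82 to 9.47 in dKO arrays, and under DP 7.84 to 8.31 and 9.04 to 9.64. The dKO arrays in ethanol were thus above the wild-type arrays under DP. Mt1, a metallothionein that binds zinc and copper, had the same arrangement: it rose from a mean of 10.99 to 12.26 in wild-type lines, whereas the dKO means were 12.48 and 12.44. The Mt1 responses were 1.35, 1.25 and 1.21 in wild-type lines and -0.05, 0.00 and -0.07 in dKO lines (difference -1.31 ± 0.13, adjusted p 2.9e-03). A second, dimmer Mt1 probe set responded by 1.24, 0.96 and 0.73 in wild-type lines and by -0.04, 0.38 and 0.61 in dKO lines. Its difference was smaller, at -0.66, without overlap of the lines. Nr4a3, an orphan nuclear receptor induced by CREB, rose from 5.86 to 7.36 in wild-type lines and averaged 8.29 and 8.65 in dKO lines. Its difference was -1.14 ± 0.15 (adjusted p 9.6e-03); the call was lost without WT3, dKO5 or dKO6 (adjusted p 0.057 to 0.071) and with the mean of all its probe sets (-0.44, adjusted p 0.28).

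Vhl, the substrate receptor of the ubiquitin ligase that removes hydroxylated HIF, was also higher in dKO cells in ethanol. It responded by 1.83, 1.79 and 1.71 in wild-type and by 0.47, 0.89 and 0.76 in dKO lines, a difference of -1.07 ± 0.15 (adjusted p 0.017). The dKO ethanol mean was 8.53 against 7.75 in wild type, and the DP means were 9.23 and 9.53. Without WT3, WT4, WT5 or dKO6 the call was lost, with differences of -1.10 to -1.04 and adjusted p of 0.055 to 0.11. A second Vhl probe set gave -0.87, also without overlap of the lines. Gclc, the catalytic subunit for glutathione synthesis, responded by 1.01, 0.98 and 1.34 in wild-type and 0.11, 0.20 and 0.08 in dKO lines (-0.98 ± 0.15, adjusted p 0.024), from a dKO ethanol mean of 8.62 against 7.78. The Gclc call was lost without any line but dKO1, with adjusted p of 0.074 to 0.16, and without both WT5 and dKO1 (0.050).

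Across the called genes the side of the difference was counted. Of the 81 genes with a lower response, 48 differed between genotypes mainly under DP (a difference of group means at least 2 times that in ethanol), 14 mainly in ethanol and 19 in both. The 48 included Selenbp1, Car12, Slc2a3 and Ppp1r3c, and the 14 included Fos, Mt1, Vhl, Gbe1, Gclc and Txnip. Under DP, 66 of the 81 had all dKO arrays below all wild-type arrays, an arrangement that 25.3% of all genes showed, and 8 had them above, against 28.4% of all genes. In ethanol 19 of the 81 had the dKO arrays below (18.8% of all genes) and 36 had them above (21.2%). A lower response goes with a low DP level or a high ethanol level by construction, so these counts describe how the difference arose.

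**Figure D3:**
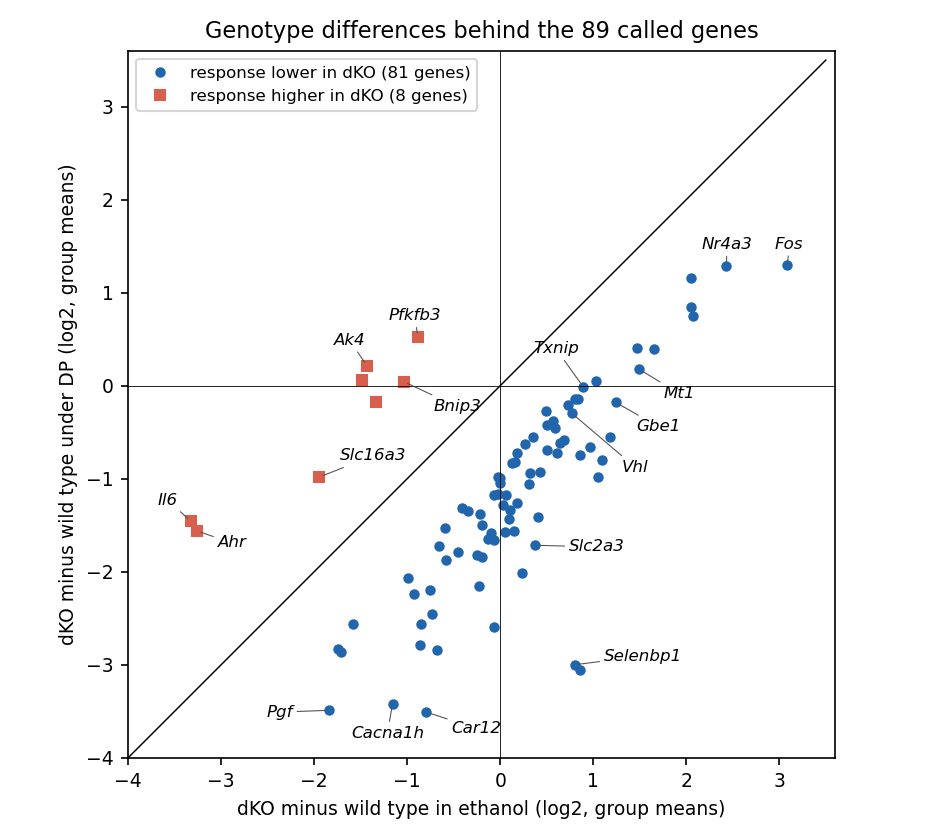
Difference of group means between genotypes (dKO minus wild type, log2) in ethanol on the horizontal axis and under DP on the vertical axis, for the 81 genes with a lower response (blue circles) and the 8 with a higher one (red squares); the diagonal marks no difference of responses. Fos and Nr4a3 lie at the upper right, higher in dKO cells in both treatments, Car12 and Pgf at the bottom, and all 8 red squares to the left of 0, lower in dKO cells in ethanol.

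A greater rise in dKO cells was called in 5 genes, Ak4, Pfkfb3, Bnip3, Slc16a3 and Prelid2. Ak4, a mitochondrial adenylate kinase, responded by 1.86, 2.12 and 2.0 in wild-type and by 3.51, 3.64 and 3.78 in dKO lines. Its mean rise was 3.98-fold against 12.5-fold, a difference of 1.65 ± 0.15 (adjusted p 1.3e-03). A second bright Ak4 probe set gave 1.70, a dimmer one -0.14 with overlap of the lines, and the mean of all its probe sets 0.77 (adjusted p 0.029). Pfkfb3, which makes the activator of phosphofructokinase in glycolysis, responded by 3.13, 3.12 and 2.59 in wild-type and 4.27, 4.59 and 4.21 in dKO lines, 7.71-fold against 20.5-fold. The Pfkfb3 difference was 1.41 ± 0.19 (adjusted p 0.013), and the call was lost without dKO5 (1.29, adjusted p 0.063) or dKO6 (adjusted p 0.053). Bnip3, an outer-membrane receptor for removal of mitochondria, responded by 1.30, 1.43 and 1.86 in wild-type and by 2.77, 2.49 and 2.56 in dKO lines (1.08 ± 0.18, adjusted p 0.036). Slc16a3, the lactate exporter MCT4, rose 2.17-fold and 4.24-fold (0.96 ± 0.17, adjusted p 0.049), and Prelid2, of a family that moves lipids between mitochondrial membranes, 1.92-fold and 4.30-fold (1.16 ± 0.15, adjusted p 8.3e-03). These 3 calls depended on single lines: Slc16a3 was lost without any line but dKO1 (adjusted p 0.12 to 0.23), Bnip3 without any but WT5 (0.064 to 0.20) and Prelid2 without WT3, dKO5 or dKO6 (0.050 to 0.067). The mean of all probe sets gave 0.63 for Prelid2 (adjusted p 0.17) and 0.80 for Pfkfb3 (0.031), and cyclic loess moved Bnip3 to an adjusted p of 0.051. Slc16a3 also missed the threshold with an intensity trend (adjusted p 0.097), without the dimmest genes (0.055) and without both WT5 and dKO1 (0.054).

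All 5 of these genes started lower in dKO cells. In ethanol Ak4 stood at 8.18 to 8.42 in wild-type and 6.79 to 6.96 in dKO arrays, and under DP at 10.13 to 10.42 and 10.42 to 10.61. Pfkfb3 stood at 7.36 to 7.80 in wild-type and 6.55 to 6.81 in dKO arrays in ethanol, and at 10.39 to 10.61 and 10.85 to 11.14 under DP. Bnip3 was 9.96 to 10.28 against 8.95 to 9.2 in ethanol and overlapped under DP, at 11.58 to 11.81 and 11.69 to 11.74. Under DP the dKO arrays of Ak4 and Pfkfb3 thus lay above the wild-type arrays, those of Bnip3 and Prelid2 overlapped them, and those of Slc16a3 lay below, at 6.24 to 6.46 against 7.21 to 7.38.

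The other 3 positive differences were in genes that fell in wild-type lines and did not pass the test in dKO lines. Il6, an inflammatory cytokine, responded by -1.61, -1.86 and -2.43 in wild-type and by 0.19, -0.38 and -0.11 in dKO lines (1.87 ± 0.23, adjusted p 7.4e-03). Ahr, the dioxin receptor, averaged -1.62 ± 0.42 (SD, n = 3 lines) and 0.08 ± 0.11, a difference of 1.70 ± 0.21 (SE; adjusted p 7.4e-03; 0.89 with the mean of all its probe sets, adjusted p 0.029). Dmrt2, a developmental transcription factor, averaged -2.02 ± 0.21 and -0.48 ± 0.33 (SD), a difference of 1.54 ± 0.20 (SE; adjusted p 8.8e-03). Before treatment all 3 were far lower in dKO cells: Il6 averaged 6.68 in wild-type and 3.35 in dKO ethanol arrays, Ahr 7.34 and 4.07, and Dmrt2 6.00 and 4.52. The dKO level of Il6 lay near the blank controls, so any fall there would be understated. Ahr and Dmrt2 stood above the blank level of the dKO ethanol arrays (3.46) by less than their wild-type falls. Falls of wild-type size could therefore not be measured in full in dKO lines for these 2 genes. Dmrt2 lost its call without WT4, dKO5 or dKO6 (adjusted p 0.050 to 0.064), and without the pairing of arrays within lines Dmrt2 and Il6 had adjusted p of 0.13 and 0.053.

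The other 3 genes with a lower response fell in dKO lines. Txnip, an arrestin-like protein that binds thioredoxin and restrains glucose uptake, responded by -0.47, -0.36 and -0.59 in wild-type and by -1.52, -1.35 and -1.25 in dKO lines (-0.90 ± 0.14, adjusted p 0.031). It started at 9.15 to 9.43 in wild-type and 10.06 to 10.23 in dKO arrays and ended at 8.69 to 8.86 and 8.67 to 8.88, so the groups overlapped under DP. Cybrd1, a ferric reductase that supplies iron uptake, responded by 0.24, 0.25 and 0.23 in wild-type and -0.59, -0.49 and -0.50 in dKO lines, and its wild-type ethanol mean was near the blank controls. Prss16, a serine protease, fell from 5.68 to 4.66 in dKO lines, and its wild-type means of 3.62 and 3.51 were near the blank controls. Leaving out any line ended the calls of Txnip and Cybrd1, and any line but dKO1 that of Prss16; these 3 genes were named after their values were seen.

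**Figure D4:**
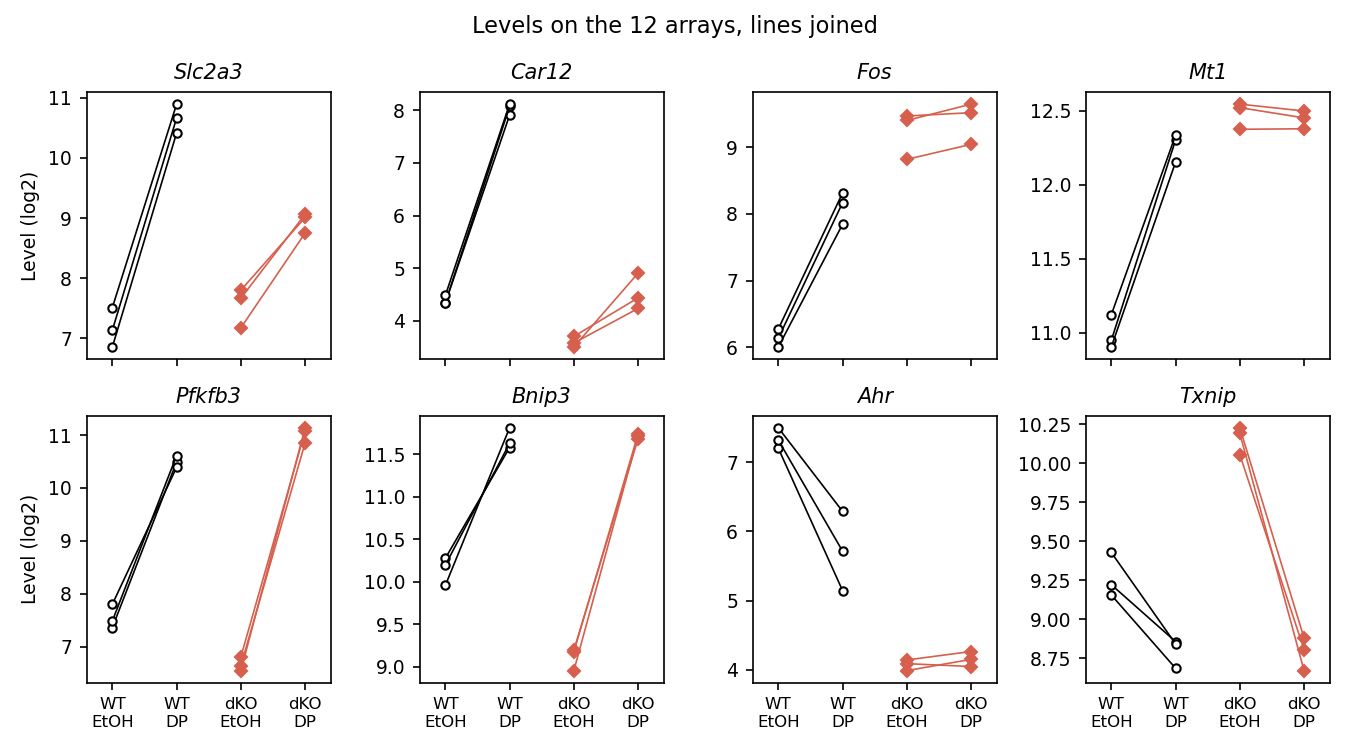
Log2 levels of 8 called genes on the 12 arrays, with the ethanol and DP arrays of a line joined; black open circles are wild-type lines, red diamonds dKO lines, and each panel has its own vertical scale. Slc2a3 and Car12 rise less in dKO lines, Fos and Mt1 start high in dKO lines, Pfkfb3 and Bnip3 start low and rise further, Ahr is low in dKO lines in both treatments, and Txnip starts high and falls to the wild-type range.

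HIF target genes were found on both sides. This list and those below were chosen with earlier results of these data known. Their counts beside the shares of all genes are therefore descriptive and support nothing. A list of glycolytic and glucose uptake genes had 23 measured members of 26; 2 were called lower (Slc2a3 and Gbe1, against 0.474% of all genes), 2 higher (Pfkfb3 and Slc16a3, against 0.0468%), and 19 did not pass the test. The dKO responses lay wholly above the wild-type responses in 10 of the 23 (43.5%, against 3.44% of all genes) and wholly below in 4 (17.4%, against 7.97%). The median difference of the list was 0.08, beside -0.02 for all genes. Members above without a call included Ldha, lactate dehydrogenase A, with responses of 0.19, 0.35 and 0.17 in wild-type and 0.73, 0.86 and 0.87 in dKO lines (0.58 ± 0.14, adjusted p 0.18). Ldha passed with an intensity trend (adjusted p 8.4e-03) and with array weights (0.028). Others were Pfkl at 0.95, Tpi1 at 0.62, Pdk1 at 0.58, Hk2 at 0.51 and Pgk1 at 0.46. Pgk1 averaged 11.94 in wild-type and 11.62 in dKO arrays in ethanol, and 12.26 and 12.40 under DP. Ldha and Pgk1 thus started lower in dKO arrays, and their greater responses ended at similar levels in the 2 genotypes. The median member response was 1.00, 1.08 and 0.67 in WT3, WT4 and WT5 and 0.80, 1.04 and 0.99 in dKO1, dKO5 and dKO6, which overlap.

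The list of other HIF targets, 48 measured of 52, held more calls of a lower than of a higher response. Called lower were 7 (against 0.474% of all genes), namely Selenbp1, Car12, Ppp1r3c, Pgf, Apln, Mt1 and Mxi1, and called higher were 2 (against 0.0468%), Ak4 and Bnip3. The dKO responses lay wholly below in 19 (39.6%, against 7.97% of all genes) and wholly above in 9 (18.8%, against 3.44%), and the median difference was -0.18. Members of this list too were chosen with earlier results known, so these shares only describe it. Pgf, an angiogenic ligand of the VEGF receptor FLT1, rose 19.0-fold in wild-type and 6.06-fold in dKO lines (-1.65 ± 0.20, adjusted p 7.4e-03; 0.050 without WT3 and 0.051 without WT4). Apln, the ligand of the apelin receptor, rose 13.3-fold and 4.93-fold (-1.43 ± 0.17). Mxi1, a MAX partner that opposes MYC, rose 4.34-fold and 2.27-fold (-0.93 ± 0.16, adjusted p 0.045), a call lost without any 1 line. Vegfa itself had a greater response in dKO lines, without a call. It responded by 2.06, 1.89 and 2.15 in wild-type and 2.71, 2.59 and 2.71 in dKO lines. The difference was 0.64 ± 0.14 (adjusted p 0.14, and 0.017 with array weights). A second Vegfa probe set gave 0.15 with overlap of the lines. The Vegfa level was lower in dKO arrays in both treatments, without overlap. The dKO mean was 7.34 against 8.83 in wild type in ethanol, and 10.01 against 10.86 under DP.

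Between these ends of the list stood classic targets with smaller differences. Egln3, a HIF prolyl hydroxylase, rose by 3.41 ± 0.01 (SD, n = 3 lines) in wild-type and 2.82 ± 0.09 in dKO lines, a difference of -0.60 ± 0.13 (SE; adjusted p 0.15). Ankrd37 rose by 4.86 ± 0.26 and 4.20 ± 0.13 (SD), Adm, the vasodilator peptide adrenomedullin, by 2.0 ± 0.16 and 1.25 ± 0.23, and Ndrg1 by 2.86 ± 0.11 and 3.11 ± 0.22. None of these differences passed the test, with adjusted p of 0.28, 0.15 and 0.92. With array weights Egln3 (adjusted p 0.022) and Adm (0.017) passed. A second Egln3 probe set gave -1.04, without overlap of the lines. The levels of Egln3, Ankrd37, Adm and Ndrg1 were lower in dKO arrays in both treatments, without overlap. Over all genes 18.8% were so arranged in ethanol and 25.3% under DP. The dKO minus wild-type means in ethanol and under DP were -1.66 and -2.26 in Egln3 and -2.63 and -2.38 in Ndrg1. They were -0.68 and -1.34 in Ankrd37 and -0.71 and -1.46 in Adm. Car9, the best known HIF-induced carbonic anhydrase, responded by 1.42, 1.37 and 0.63 in wild-type and by -0.07, 0.51 and 0.10 in dKO lines (-0.96 ± 0.24, adjusted p 0.24). Car9 passed with array weights (adjusted p 0.012) and without lines WT5 and dKO1 (0.047).

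**Figure D5:**
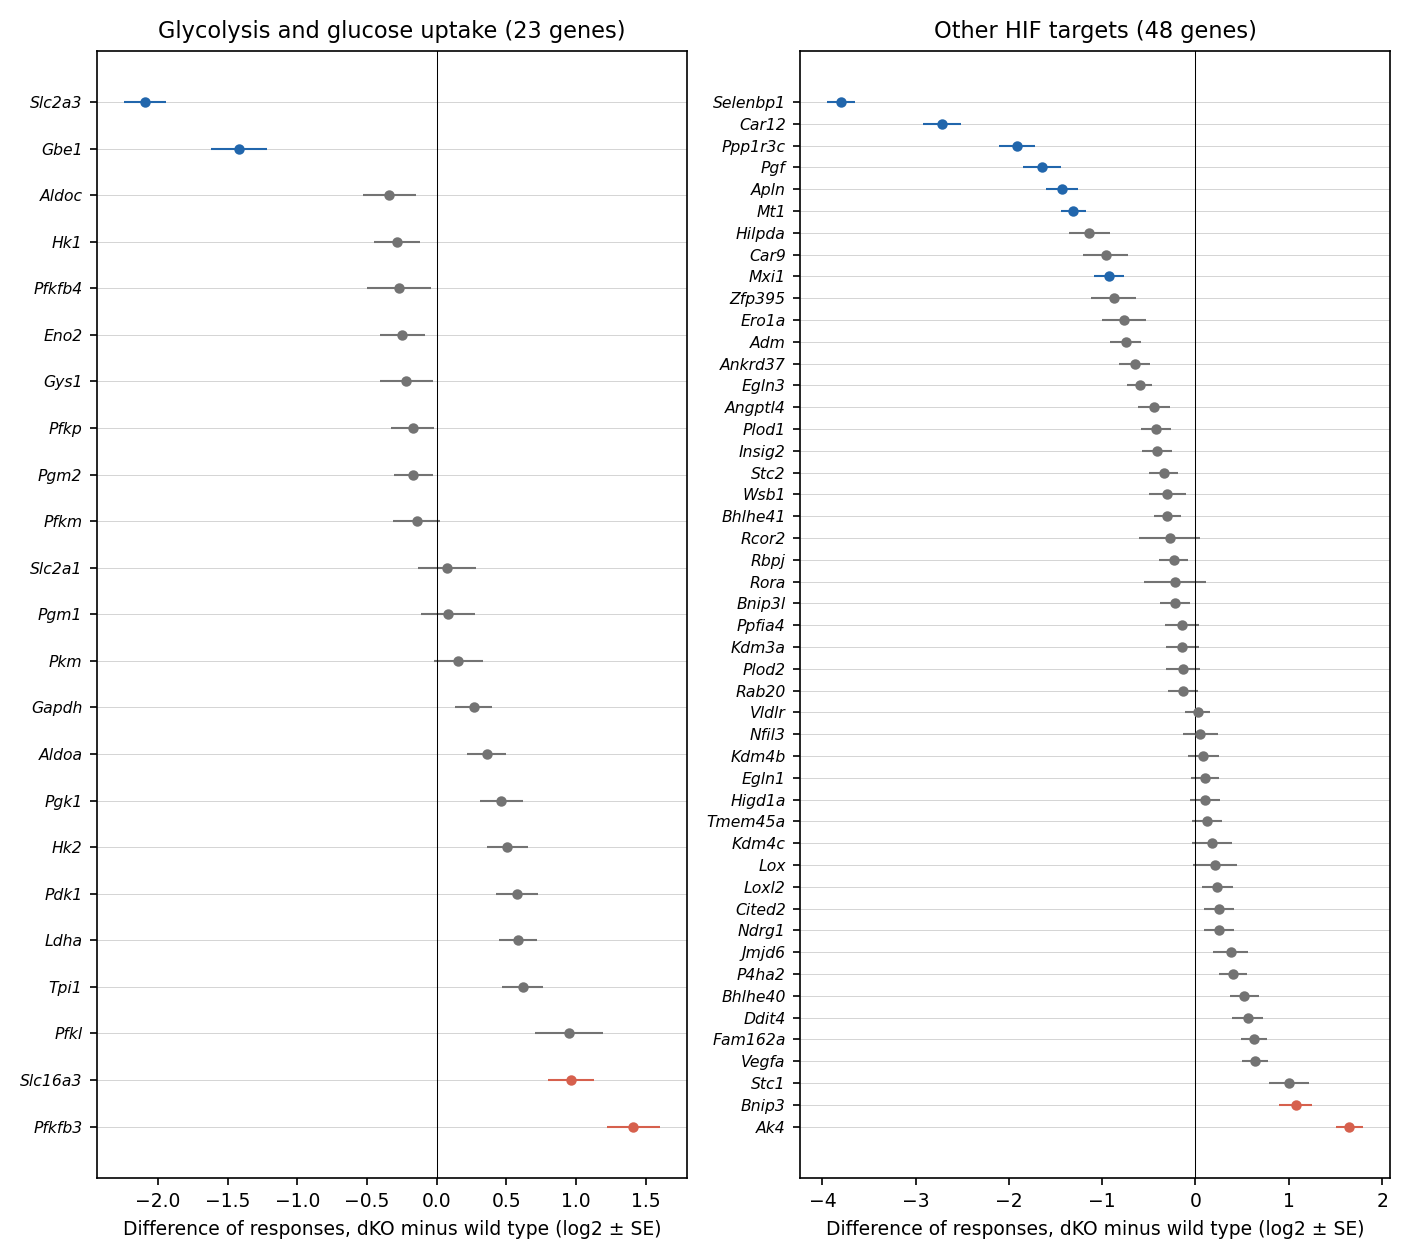
Difference of responses (dKO minus wild type, log2) for the measured members of the 2 HIF target lists, points with SE bars, 3 lines per genotype; blue and red points are called lower and higher, grey points are not called. Selenbp1 stands at -3.80 and Ak4 at 1.65 at the ends of the right panel, and Slc2a3 at -2.09 and Pfkfb3 at 1.41 at the ends of the left panel.

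Vhl was the 1 called gene, lower, among 14 measured HIF pathway components, beside 0.474% of all genes. Hif1a had mean responses of 0.20 ± 0.31 (SD, n = 3 lines) in wild-type and -0.10 ± 0.38 in dKO lines, and Epas1, the HIF-2α gene, 0.20 ± 0.27 and 0.10 ± 0.30. Wholly below were 4 of the 14 (7.97% of all genes), Vhl and, without a call, Egln3, Egln2 and Arnt. Among 17 lysine acetyltransferases and coactivators none was called and none was separated, including Crebbp at 0.09 ± 0.21 (SE).

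Early response genes were divided. On the CREB list 3 of 19 measured members were called lower (0.474% of all genes), Fos, Sik1 and Nr4a3, and none higher (0.0468% of all genes); the median difference was -0.10. Sik1, a kinase that restrains CREB coactivators, responded by 2.04, 1.69 and 1.57 in wild-type and 0.69, 0.34 and 0.28 in dKO lines (-1.33 ± 0.18, adjusted p 0.012), and its call was lost without WT3, WT4, dKO5 or dKO6 (0.059 to 0.087). Of 29 immediate early genes, Fos, Nr4a3 and Klf10 were called lower and none higher, beside the same shares of all genes. Of the 29, 10 were wholly below (7.97% of all genes) and 6 wholly above (3.44%). The first and the second list share Fos and Nr4a3. Klf10, a TGF-beta-inducible repressor, responded by 1.19, 1.13 and 1.16 in wild-type and 0.21, 0.29 and 0.06 in dKO lines (-0.97 ± 0.14, adjusted p 0.016), with the call lost without any line but dKO1 (0.055 to 0.12) and without the pairing (0.052). Below without a call stood Fosl1 at -1.07, Junb at -0.79 and Egr2 at -0.74. Above without a call stood Nr4a1 at 0.58, where the wild-type mean response was -0.64 and the dKO mean -0.07.

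Inflammatory genes had 1 call each way among 23, beside 0.474% of all genes called lower and 0.0468% called higher. Lif, a cytokine of the interleukin-6 family, responded by 1.77, 1.96 and 2.0 in wild-type and 0.57, 0.72 and 0.57 in dKO lines (-1.29 ± 0.14, adjusted p 4.0e-03), and Il6 is described above. With the mean of all Lif probe sets, most of them dim, the difference was -0.56 (adjusted p 0.17). Tnfaip3, an NF-kB feedback inhibitor, rose by 1.78 and 1.81 (difference 0.02 ± 0.15, not called), while the costimulatory ligand gene Tnfsf9 responded by 1.59 and 2.59 on average (1.00 ± 0.19, adjusted p 0.08). Gclc was the 1 call, a lower one, among 16 NRF2 targets. No member was called among 13 iron handling genes, where Tfrc, the transferrin receptor, averaged 0.93 ± 0.60 (SD, n = 3 lines) in wild-type and 1.51 ± 0.43 in dKO lines. Nor was any called on the lists of ATF4 targets, the unfolded protein response, p53 targets, interferon-stimulated genes, mitosis, S phase, lipid synthesis, smooth muscle, matrix, fibroblast markers, sex-linked genes or 8 other cell types.

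Among called genes outside the lists, the following were picked after their values were seen, for known roles. Hbegf, a ligand of the EGF receptor, responded by 1.81, 1.70 and 1.75 in wild-type and 0.23, 0.26 and 0.32 in dKO lines (-1.49 ± 0.13, adjusted p 1.3e-03). Cdkn1b and Cdkn1c, inhibitors of cyclin-dependent kinases, rose by 1.26 and 0.95 in wild-type lines and averaged 0.31 and -0.21 in dKO lines. Ppp1r3b, another glycogen-targeting subunit, kept 63.9% of its wild-type rise, at 2.71 and 1.73. Id2, an inhibitor of basic helix-loop-helix factors, rose by 1.71 and 0.64, and Sap30, a subunit of the Sin3 deacetylase complex, by 2.11 and 1.16. The Cdkn1b, Cdkn1c, Ppp1r3b, Id2 and Sap30 calls were each lost without any line but dKO1. In 6 genes every wild-type response was positive and every dKO response negative: Rara, the retinoic acid receptor alpha, at 0.83 and -0.23, Nfatc1, Rnf144b, Mturn, 2310030G06Rik and Cybrd1. Of these, 2310030G06Rik kept its call without each line in turn. Rara and Rnf144b lost it without WT3, WT4, dKO5 or dKO6, Mturn without WT3, dKO5 or dKO6, and Nfatc1 without any line but WT3. Tested within dKO lines, only Cybrd1 of the 6 passed as a fall (limma adjusted p 0.025). The dKO responses of Rnf144b (0.051), 2310030G06Rik (0.20), Rara (0.27), Nfatc1 (0.44) and Mturn (0.70) did not pass. The share of all genes with such opposite signs is not given here.

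Because the called genes were picked for their difference, the size of the responses was also read from genes picked without the line that measured it. Genes with a response of at least 1 log2 in 2 wild-type lines numbered 183, 190 and 192 for the 3 choices of lines. Their median response in the left-out wild-type line was 1.66, 1.58 and 1.72, and in the single dKO lines it was 0.74 to 0.95. The median of the middle dKO line was 50.3% to 54.9% of the held-out wild-type median. Picked in 2 dKO lines instead, 75 to 79 genes had a median of 1.61 to 1.69 in the left-out dKO line and of 1.88 to 1.93 in the wild-type lines; the middle wild-type line stood at 112% to 118% of the former. Few falls reached this size: 10 to 17 genes when picked in wild-type lines, where the median of the middle dKO line was 36.1% to 45.5% of the held-out fall, and 3 to 8 when picked in dKO lines.

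Other probe sets of the called genes mostly gave the same sign. For 40 called genes there were 65 further probe sets, 34 of them above the blank controls, and 33 of these had the sign of the gene, 27 without overlap of the lines. X-linked genes made up 4 of the 89 (4.49%) and 3.49% of all genes tested, and no called gene was Y-linked.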

How the data were processed

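Levels were log2 probe set values, deposited as 1 table; per the submitters' processing notes the authors ran RMA in the program Affymetrix Expression Console 1.1. RMA normalizes between arrays, so a shift common to all genes is removed; array medians lay between 3.87 and 3.98 log2. Of 45141 probe sets, 28898 had exactly 1 gene symbol, and each of 17097 genes was represented by its brightest one. A group mean at or below the 95th percentile of the blank control probe sets was called near the blank controls. The precision is limited by the number of arrays.

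Line responses (log2 DP minus log2 ethanol) were compared with limma 3.58.1 (lmFit, eBayes, 2-sided) in R 4.3.3, with p adjusted over all genes (Benjamini-Hochberg) and called under 0.05; ± gives the moderated SE unless SD is stated. The script was tested on simulated data. The labels give both treatments to the same numbered MEF, which is the source of the pairing; as a check, deviations of a line's DP and ethanol arrays from their group means correlated at 0.42, 0.06 and 0.33 in WT3, WT4 and WT5 and at 0.04, 0.32 and 0.36 in dKO1, dKO5 and dKO6. Equal numbers in the 2 genotypes pair nothing. Replicates are separately numbered MEF lines; the labels do not say whether each came from its own embryo, so p-values measure the spread between these lines.

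Named genes were the 12 most negative and 12 most positive differences among called genes whose lines did not overlap, up to 4 called members of each list (for the HIF, HIF pathway and CREB lists the 2 of largest difference where none passed) and genes chosen by name, such as Vegfa, Tfrc and Hif1a; some list members are given as counts. The members and lists were chosen with earlier results of these data known. Alternatives changed the pairing, variance model, weights, normalization, dim-gene filter, probe set choice, fold minimum, sex chromosomes and lines left out. Promoter sequences are from RefSeq (GRCm38.p6).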

Additional observations from a re-analysis of the deposited data

Results flagged for a closer look

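The DP response differed between the genotypes by the test of the difference itself in 81 genes with a lower and 8 with a higher dKO response. Among the genes described, the differences (dKO minus wild type, log2) were -3.91 in Selenbp2, -3.80 in Selenbp1, -2.71 in Car12, -2.54 in 2610528A11Rik, -2.27 in Cacna1h, -2.25 in Amz1, -2.16 in Rab33a, -2.09 in Slc2a3 and -2.03 in Cdk5r1. Smaller negative differences were -1.92 in both Dgat2 and Ppp1r3c, -1.89 in Me2, -1.80 in Fos, -1.65 in Pgf, -1.42 in Gbe1, -1.33 in Sik1 and -1.29 in Lif. The smallest were -1.14 in Nr4a3, -1.07 in Vhl, -0.98 in Gclc and -0.97 in Klf10. Positive differences were 1.87 in Il6, 1.70 in Ahr, 1.65 in Ak4, 1.54 in Dmrt2, 1.41 in Pfkfb3, 1.16 in Prelid2, 1.08 in Bnip3 and 0.96 in Slc16a3. The criterion for a single outlying sample was not applied, since each group holds 3 lines.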

How the results depend on the processing

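In each alternative run, every one of the 89 genes that was tested kept its sign. The fit with no replicate block (the pairing within lines removed) called 96 genes, 78 of them shared, and ended the calls of Klf10, Dmrt2 and Il6 among the named genes. Array weights called 271 genes, 229 lower and 42 higher, including all 89. Without the block and without the 2 deviating ethanol arrays, 14 genes were called higher, and Pgf, Klf10, Dmrt2, Ahr and Il6 were not called. Leaving out 1 line at a time gave 38 to 96 called differences, 35 to 85 lower and 3 to 11 higher; 35 of the 89 remained called in all 6 fits. The wild-type response then had 387 to 1137 called genes and the dKO response 119 to 287. Genes whose line responses did not overlap numbered 1951 (1363 and 588), 1227 without the dimmest 40% and 7269 without lines WT5 and dKO1, where only 2 lines face 2. The dKO share of held-out wild-type rises was 55.5% with cyclic loess and 55.5% without dim genes, and 49.2% with a minimum of log2(1.5). For rises picked in dKO lines the wild-type share was 120% with cyclic loess and 123% with that minimum. Cyclic loess and median centring moved the median difference of all genes by 0.01 and 0.09. The 3 lines per genotype limit what can be called, and dim genes limit the size of a fall.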
